A study of Mus musculus with 9 samples.

Results

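The 42 genes described here act in mitosis, in the building of the spindle, in the attachment of chromosomes to it, in the checkpoint that watches this attachment and in the division of the cell body that follows. They were chosen by name, and all 42 were found among the 55401 genes of the deposited tables. RNA was sequenced from leukemic and pre-malignant mouse cells that carried genetic color codes. Lineage-negative bone marrow cells of C57BL/6-Ly5.1 mice had been transduced with a gammaretroviral vector for *Meis1* and *Hoxa9*, which also confers puromycin resistance. Lentiviral vectors then gave the cells their color codes, and each coded clone grew from 1 cell. All 9 libraries share this background, and reads of *Hoxa9* and *Meis1* include the vector cDNA. A mixture of clones was transplanted with helper bone marrow into lethally irradiated C57BL/6J mice, and splenocytes were thawed and sorted by color code as CD45.1+ EGFRt-bright cells that were cKit+ and CD11bdim or negative. The pre-malignant group (n = 3) holds clones 33, 38 and 43, all from mouse 15, which was killed early. The de novo expanded group (n = 3) holds the same 3 clones, each from 1 of the endpoint mice 13, 14 and 17 in which it had grown out. The stably expanded group (n = 3) holds clone 34 from these same 3 endpoint mice and therefore represents 1 clone. Mouse and time of sampling cannot be told apart from the pre-malignant state in any comparison with that group. The column names tie a library to its group but not to a clone or mouse, so library numbers 1 to 3 are only names, and no pairing by clone or mouse was possible. Clone 34 likewise cannot be told apart from the stably expanded state. With so few samples per group, p-values set a group difference against the spread between these samples only. That spread is between clones of 1 mouse in the pre-malignant group and between mice for 1 clone in the stably expanded group.

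A cell enters mitosis when cyclin-bound Cdk1 is switched on. Kinetochores then join the chromosomes to spindle microtubules, and unattached kinetochores hold the anaphase promoting complex in check until every chromosome is attached. Most transcripts of these proteins accumulate in G2 and mitosis and are nearly absent from resting cells, which is why genes such as *Mki67* are used as signs of division in bone marrow and leukemia. In bulk RNA such as this, fewer dividing cells and less of these RNAs per cell cannot be told apart.

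Many promoters of mitotic genes carry a cell cycle homology region (CHR), with the letters TTTGAA or the variant TTTAAA, close to the start site, and further upstream the CCAAT letters to which the factor NF-Y binds. RefSeq promoter windows on build GRCm38.p6, which reach from 250 bases before to 50 bases after the start, matched 34 of the 42 genes by symbol. Stretches of 100 bases are shown for 5 of them that hold a CHR there and for *Nuf2* and *Mad2l1*, which hold none. Each is written 5′ to 3′ on the strand of the gene, and capitals mark CHR and CCAAT letters on either strand (TTCAAA and ATTGG are the reverse forms). The stretches end before the start in both RefSeq and the annotation of the deposited tables, with the last base at -27 from the RefSeq start in *Cdk1*, at -10 in *Cdc20* and at -1 in the others, and overlap no gene of that annotation.
Cdk1, chr10:69352939-69353038, minus strand: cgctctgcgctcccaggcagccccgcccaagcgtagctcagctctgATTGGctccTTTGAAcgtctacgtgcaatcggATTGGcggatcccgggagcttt
Cdc20, chr4:118437353-118437452, minus strand: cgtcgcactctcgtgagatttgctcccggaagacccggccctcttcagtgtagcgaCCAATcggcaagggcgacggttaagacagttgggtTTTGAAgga
Kif11, chr19:37376282-37376381, plus strand: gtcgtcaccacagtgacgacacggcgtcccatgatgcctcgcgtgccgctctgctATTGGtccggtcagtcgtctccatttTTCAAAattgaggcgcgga
Top2a, chr11:99024190-99024289, minus strand: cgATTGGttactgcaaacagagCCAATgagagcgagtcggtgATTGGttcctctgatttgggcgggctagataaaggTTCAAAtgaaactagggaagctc
Mki67, chr7:135716380-135716479, minus strand: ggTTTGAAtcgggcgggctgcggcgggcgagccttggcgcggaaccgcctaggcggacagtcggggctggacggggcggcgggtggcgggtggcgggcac
Nuf2, chr1:169531465-169531564, minus strand: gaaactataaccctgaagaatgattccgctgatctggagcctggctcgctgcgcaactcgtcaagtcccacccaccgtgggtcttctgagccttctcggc
Mad2l1, chr6:66535121-66535220, plus strand: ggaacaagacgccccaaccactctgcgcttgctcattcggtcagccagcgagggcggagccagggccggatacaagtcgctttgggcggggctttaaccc
*Cdk1*, which encodes the mitotic kinase itself, held CHR letters at -71, and at -15 outside the stretch shown, and reverse CCAAT letters at -80 and -48, counted from the start site to the first base of the match. *Cdc20* held a CHR at -18, and *Ube2c*, *Kif11* and *Top2a* held its reverse form at -29, -19 and -23, while *Mki67* held forward CHR letters farther from the start, at -98 and -116. In *Ccnb1* the variant lay at -42 with CCAAT letters at -99 and -67, and in *Plk1* it lay at -89 and -29.

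On both strands of the whole window, TTTGAA was found in 26 of 34 members (76.5%), against 20.2% of the 27025 genes with a window and 14.5% of the 9083 such genes that were tested in the fit of all libraries. Within 50 bases of the start the shares were 70.6% of members and 3.90% of the tested genes. TTTAAA stood in 9 members (26.5%) against 10.8% of the tested genes, and CCAAT in 25 members (73.5%) against 43.4%. Letters related to E2F sites were searched too. GGCGGGA was found in 10 members (29.4%) against 24.2% of the tested genes, and GGCGCGA in 1 member (2.94%) against 7.55%. No match of 1 motif is a match of another, and TTTAAA, which reads the same on both strands, was counted once. *Mad2l1*, *Nuf2* and *Nusap1* held no CHR, CHR variant or CCAAT letters. These are matches of letters and not measured sites. The plot of motif positions gives every match of the first 3 motifs. The members without a matched window are *Aurkb*, *Ccna2*, *Cdc25c*, *Foxm1*, *Incenp*, *Kif20a*, *Spc24* and *Tpx2*.

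**Figure D1:**
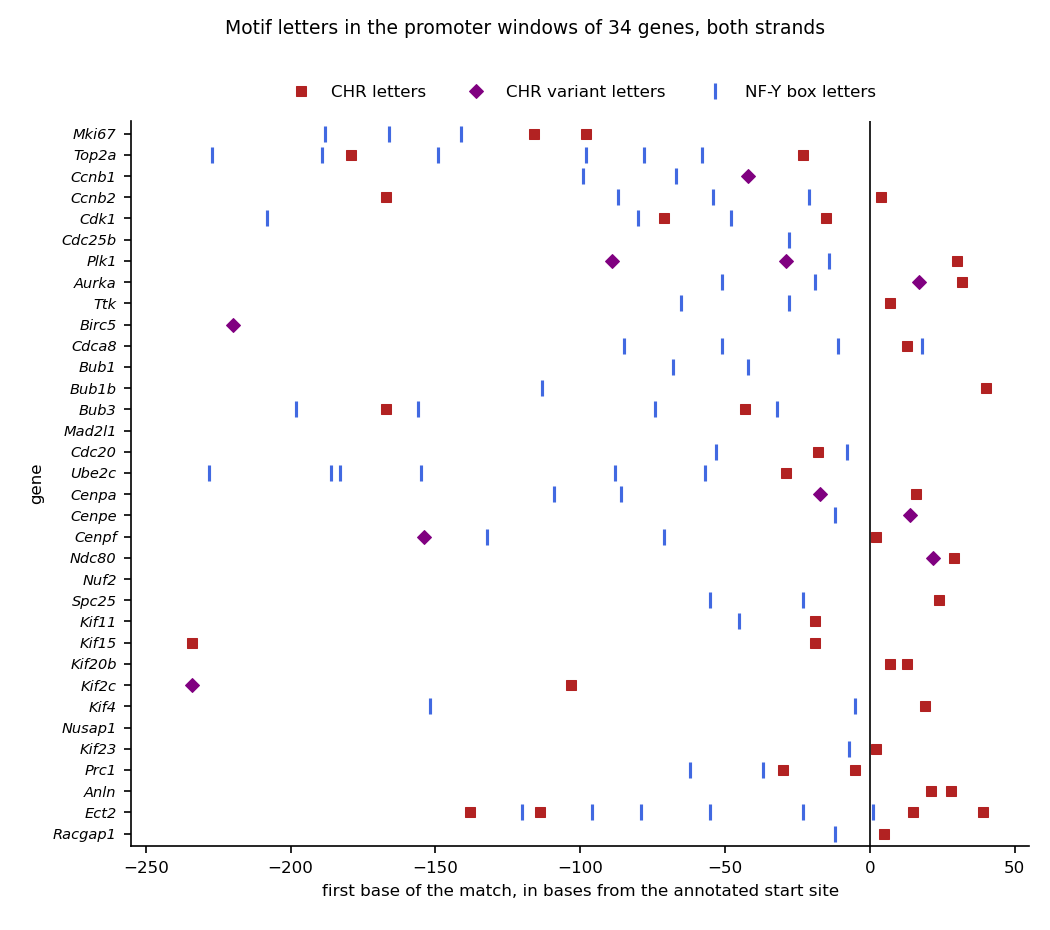
Each row is 1 of the 34 genes with a promoter window, and the x axis gives the first base of each match in bases from the annotated start site (vertical line at 0), on either strand. Red squares are CHR letters, purple diamonds its variant and blue ticks the NF-Y box, *Bub3*, *Ect2* and *Prc1* have 2 windows drawn on 1 row, and 24 of 34 genes have a red square within 50 bases of the start.

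The libraries held 10379739 to 15551196 reads on genes, and every member passed the filter on low values in each comparison. The sorted population could be checked by its markers. *Kit* was at 142 to 287 CPM, the reads of a gene scaled to all reads on genes of its library, and *Ptprc* at 310.3 to 385 CPM. *Itgam*, which encodes CD11b, was less even, at 49.9, 40.7 and 41.3 CPM in the pre-malignant libraries. It was at 27.8, 34.7 and 58.2 CPM in the de novo expanded and 85.7, 58.0 and 59.3 CPM in the stably expanded libraries. *Cd34* ranged from 46.6 to 164 CPM. T cell markers summed to at most 3.08 CPM, the platelet list to at most 3.04 CPM with *Ppbp* at 0 in all 9 libraries, and the 6 B cell markers to 74.0 to 254 CPM, most of it *Ighm*. The 6 macrophage markers summed to 53.5 to 242 CPM, nearly all from *Adgre1* and *Vcam1*. The 9 erythroid markers summed to 77.3 to 159 CPM, mostly *Tfrc*, which dividing cells also use, while *Hbb-bs* was at 0.385 to 12.7 CPM. The 7 late neutrophil markers reached the highest sums in the stably expanded group, at 521 to 4244 CPM against 147 to 556 CPM in the de novo expanded and 178 to 218 CPM in the pre-malignant libraries. De novo expanded library 3 differed from its group in granule genes, with *Mpo* at 15796 CPM against 1637 and 2658 CPM. Their part in the results on the members was not tested.

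Per kilobase of exon the members spanned a wide range of levels. The divisor is the deposited exon length of each gene, so these levels and their order depend on the annotation. *Mki67*, which encodes the Ki-67 protein that coats mitotic chromosomes, led with 161 CPM per kilobase as the mean of 9 libraries, above 98.8% of the 13960 genes tested across all libraries. It was followed by *Top2a*, the topoisomerase that untangles sister chromatids, at 78.6, by *Incenp* at 62.7, by *Ccnb2* at 50 and by *Bub1b* at 42.7 CPM per kilobase. At the lower end stood *Cdc25c* at 2.81, *Mad2l1* at 4.76 and *Ccnb1* at 5.79 CPM per kilobase. The low place of *Mad2l1* goes with an exon length of 8390 bases. Its mean of 39.9 CPM was above those of *Cdc25b* (25.3), *Spc25* (34.6) and *Ttk* (37.4). *Cdc25c*, the member with the fewest reads, still had between 112 and 283 reads per library. Of the B-type cyclins, *Ccnb2* was 6.19 to 13.4 times as high per kilobase as *Ccnb1* over the 9 libraries. Part of this ratio comes from exon lengths of 1531 and 4217 bases, and the mean CPM were 76.5 and 24.4. *Bub1b* was 2.94 to 3.84 times as high as *Bub1*, and *Aurkb* 1.14 to 1.48 times as high as *Aurka*. The order within each of these 3 pairs was the same in all 9 libraries. Per kilobase *Kif20b* lay at 0.92 to 1.51 times the level of *Kif20a*, and their order varied, whereas on CPM *Kif20b* was higher in all 9 libraries.

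The members varied together among the libraries of a group. In each group 1 library was lowest for nearly every member. Pre-malignant library 1 was the lowest of its group in 41 of 42 members, where 36.0% of the 13960 genes were lowest in it. De novo expanded library 3 was lowest in 40 of 42 members (39.0% of all genes) and stably expanded library 3 in 39 of 42 (36.2%). Summed over the members, the level was 4626, 5796 and 5904 CPM in pre-malignant libraries 1 to 3, 7136, 6707 and 4863 CPM in de novo expanded libraries 1 to 3, and 6529, 6615 and 5137 CPM in stably expanded libraries 1 to 3. De novo and stably expanded libraries 1 and 2 thus lay above all 3 pre-malignant libraries, while library 3 of both groups lay below pre-malignant libraries 2 and 3, and the groups overlapped.

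**Figure D2:**
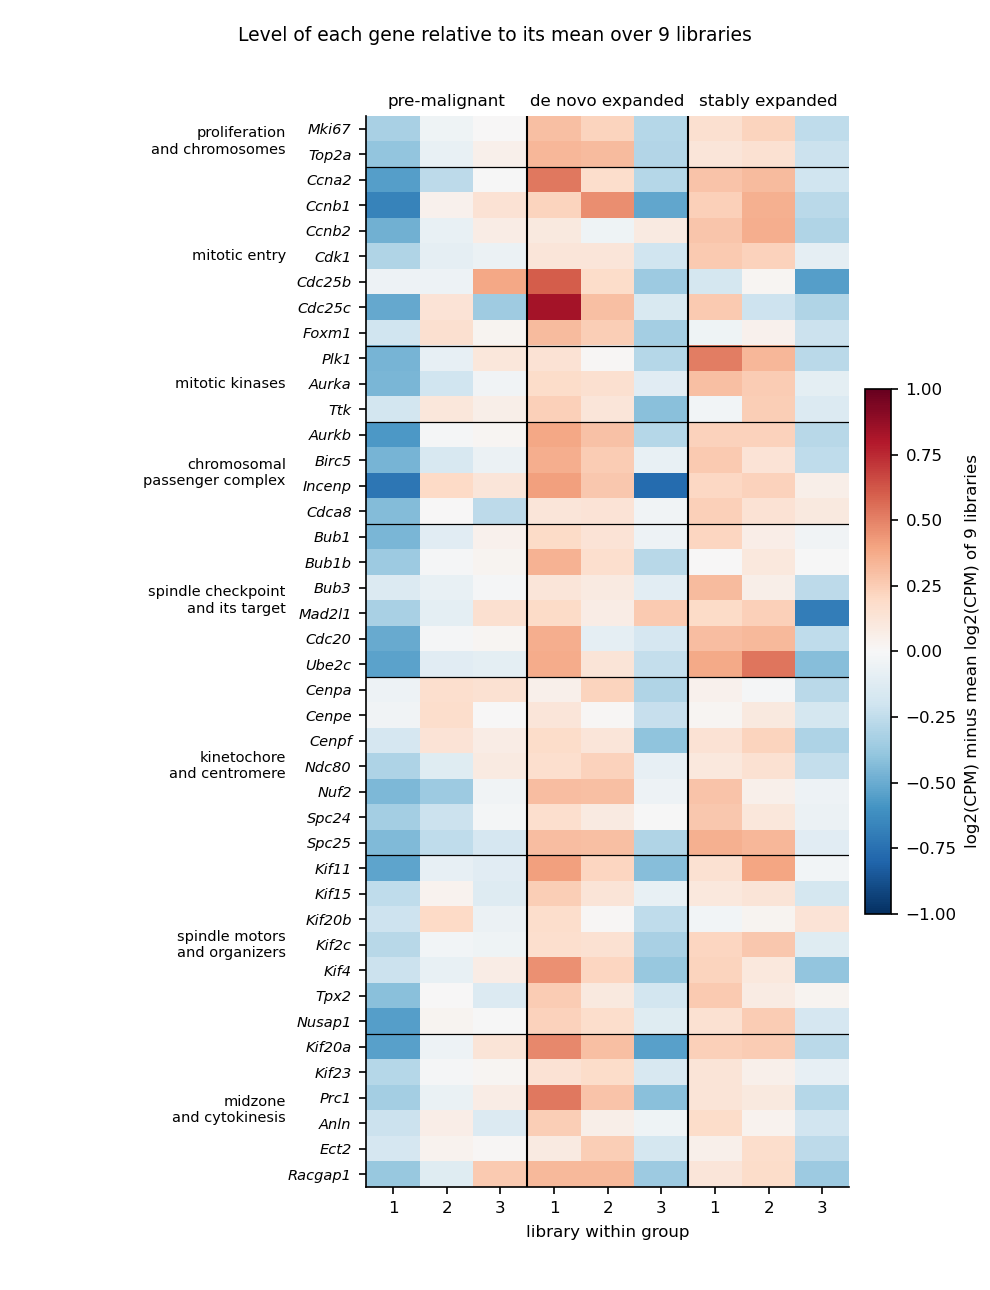
Color gives log2 CPM minus the mean log2 CPM of the 9 libraries for each of the 42 genes (rows, by role) in each library (columns, by group). Pre-malignant library 1 and library 3 of both expanded groups are blue in most rows, while libraries 1 and 2 of the expanded groups are mostly red. On log2 (normalized count + 1), a scale not plotted here, the medians of the 3 blue libraries relative to the 9-library mean were -0.35, -0.24 and -0.19.

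Within a group the gap of the low library was of similar size for most members. On the log2 scale, pre-malignant library 1 lay below the mean of its other 2 libraries by a median of -0.30 over the members (quartiles -0.40 and -0.21) and below it in 42 of 42. De novo expanded library 3 lay at a median of -0.39 (quartiles -0.60 and -0.28) and below the others in 40 of 42, and stably expanded library 3 at -0.34 (quartiles -0.47 and -0.22) and in 41 of 42. Over all genes these medians were -0.012, 0.0066 and 0.0050, with quartiles of -0.20 and 0.20, -0.34 and 0.36, and -0.24 and 0.25. *Incenp* showed the widest gap in the first 2 of these libraries, at -0.86 and -1.09, and *Mad2l1* in the last, at -0.87. The same library of de novo expanded cells had *Mad2l1* 0.15 above its group, and stably expanded library 3 had *Kif20b* 0.17 above.

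The 113 other mitotic genes of a separate list, which holds condensin, cohesin, the anaphase promoting complex and further kinetochore and spindle proteins, summed to 9261, 10140.2 and 10243 CPM in the pre-malignant, 11069, 11105 and 9618 CPM in the de novo expanded, and 10929, 10818 and 10077 CPM in the stably expanded libraries. The 24 genes of S phase summed to 3607, 3727 and 4071 CPM, 4452, 4459 and 4130.0 CPM, and 4574, 4519 and 4157 CPM in the same order. The same 3 libraries were lowest of their groups in both lists. Levels of *Meis1*, whose reads include the vector cDNA and were not split from it, were highest in 2 of these 3 libraries. They were at 910.0 CPM in pre-malignant library 1 and 1099 CPM in de novo expanded library 3, against 535 to 874 CPM in the other 7. In stably expanded library 3, the remaining low library, *Meis1* was instead the lowest of its group, at 790 CPM against 850 and 874 CPM. The part of *Meis1* in the pattern was not tested.

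**Figure D3:**
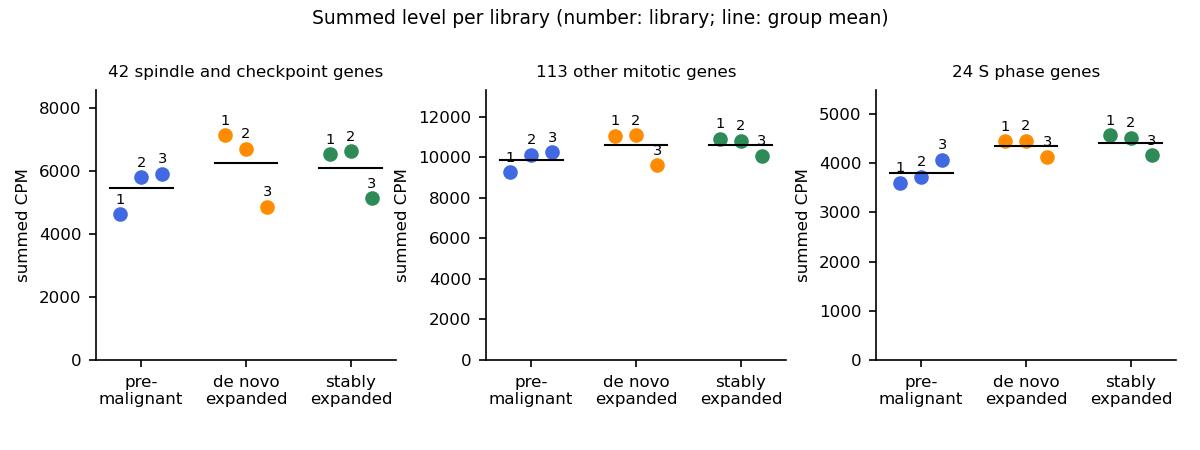
Summed CPM of the 42 members, of 113 other mitotic genes and of 24 S phase genes are plotted for every library, with numbers naming the library and lines the group means. In the members, library 3 of the de novo expanded group (4863 CPM) and of the stably expanded group (5137 CPM) sit well below libraries 1 and 2, and pre-malignant library 1 (4626 CPM) is the lowest point.

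The comparison of de novo expanded with pre-malignant cells asks what changed in the same clones as leukemia emerged. Most members had a log2 fold change somewhat above 0, but no member passed the test, and the summed levels of the groups overlapped. Since the members varied together among libraries, their shared sign does not count as 42 separate observations. With limma on log2 (normalized count + 1), 0 of 42 members were called at an adjusted p under 0.05 and at least 2-fold (background over 14195 genes 0%), and edgeR and DESeq2 called 0 as well. The log2 fold change was above 0 in 38 of 42 members (background 51%), with a median of 0.23, or 1.17-fold, against 0.0079 over all genes tested. At an unadjusted p under 0.05, 3 members were higher (background 5.99%), namely *Nuf2*, *Birc5* and *Cdca8*, and 0 were lower (background 5.26%). On normalized counts the 3 libraries of each group did not overlap in 4 members, all higher in de novo expanded cells (background 10.6% higher and 8.5% lower). These 4 of 42 are a smaller share than the background of 10.6%. They were the members just named and *Spc24*. On CPM only *Spc24* stayed free of overlap. There de novo expanded library 3 lay below the highest pre-malignant library in *Nuf2* (65.7 against 66.5), *Birc5* (55.3 against 55.7) and *Cdca8* (71.3 against 73.1). The 95% interval excluded a 2-fold change either way in 41 of 42 members (background 60.5%), and the exception was *Cdc25c*.

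The comparison of the stably expanded clone with pre-malignant cells uses the same 3 pre-malignant libraries. Here 0 of 42 members were called higher or lower (background 1.2% and 1.55% of 13968 genes), also with edgeR and DESeq2. The log2 fold change was above 0 in 38 of 42 members (background 50.5%), with a median of 0.20, or 1.15-fold, against 0.0042 over all genes, and in 33 of 42 after quantile normalization. At an unadjusted p under 0.05, 9 members were higher (background 13.2%), namely *Cdca8*, *Spc25*, *Kif11*, *Nuf2*, *Aurka*, *Tpx2*, *Ccna2*, *Cdk1* and *Spc24*, and 0 were lower (background 12.3%). Without overlap between the groups on normalized counts, 6 members were higher, a smaller share than the background of 16.1%, and 0 were lower (background 14.6%). Of these, *Nuf2* and *Bub1b* overlapped on CPM. Every one of the 42 intervals excluded a 2-fold change (background 63%), and the smallest adjusted p was 0.0722. Without a fold limit 7.95% of all genes had an adjusted p under 0.05, but 0 members with limma and edgeR and 1 member, *Spc25*, with DESeq2 (adjusted p = 0.0429).

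Between the leukemic groups the members were nearly level. Of 42 members 20 were above 0 in stably over de novo expanded cells (background 49.6%), the median log2 fold change was -0.0023, 0 were called (background 0.00727% higher and 0% lower) and 0 had an unadjusted p under 0.05 (background 2.72% higher and 2.11% lower). In 0 of 42 members were the groups free of overlap on normalized counts (background 4.66% higher and 4.95% lower). The interval excluded a 2-fold change in 41 of 42 (background 62.2%), again with *Cdc25c* as the exception, at -0.40 ± 0.28 (SE, 95% interval -1.07 to 0.27).

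**Figure D4:**
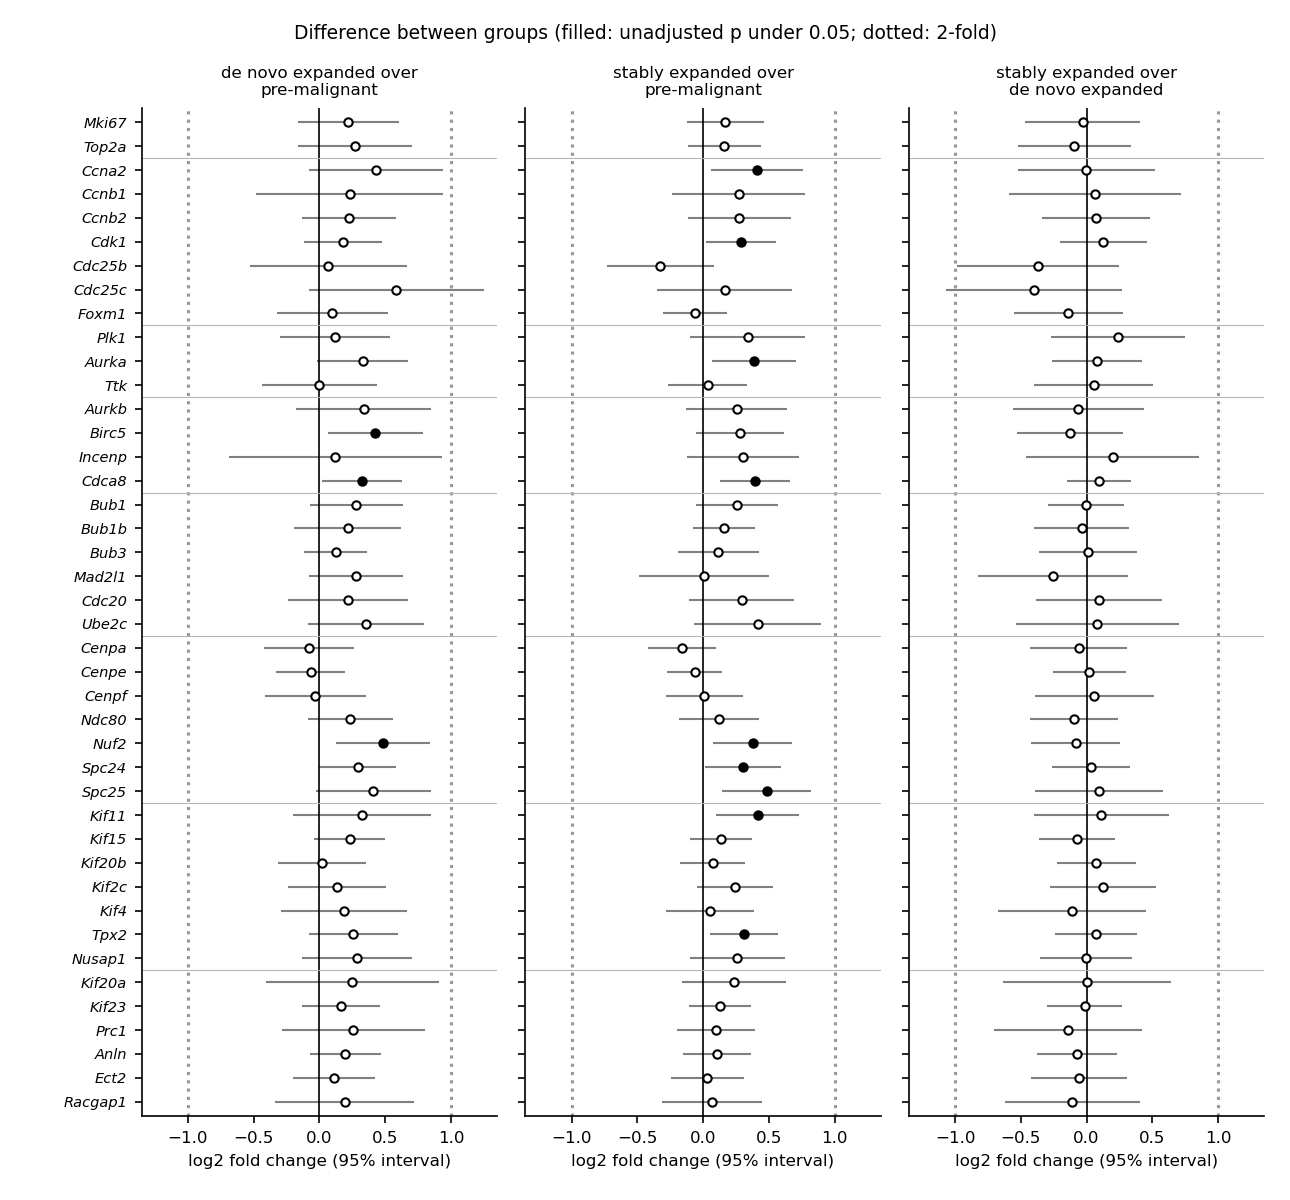
Points are log2 fold changes with their 95% interval from limma for the 42 members, in the order of roles of the heat map, and filled points have an unadjusted p under 0.05. In the first and second panel 38 of 42 points lie right of 0 and nearly all between the dotted lines of 2-fold, and in the third panel 20 of 42 do.

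These summaries depended on single libraries. Without de novo expanded library 3, 26 members had an unadjusted p under 0.05 and were higher than in pre-malignant cells, against 11.1% of all genes, the median was 0.35, and *Nuf2* and *Spc25* reached adjusted p-values of 0.0424 and 0.0438 with log2 fold changes of 0.59 and 0.60, below 2-fold. Over all genes 214 were then called, against 0 with this library. Without pre-malignant library 1 the count of members was 0 (3.13% of all genes) and the median 0.12, and without de novo expanded library 2 it was also 0 (4.09% of all genes). In the stably expanded comparison, leaving out stably expanded library 3 gave 18 such members (12.7% of all genes) and a median of 0.31, with adjusted p-values of 0.0279 in *Ube2c*, 0.0304 in *Spc25* and 0.0459 in *Ccna2*, and leaving out pre-malignant library 1 gave 2 (10.6% of all genes) and a median of 0.06. With all libraries, 0% of all genes in the de novo and 7.95% in the stably expanded comparison had an adjusted p under 0.05 without a fold limit. These shares are not given here for the fits without 1 library. Between the leukemic groups, 5 of 42 members were above 0 without de novo expanded library 3 and 36 of 42 without stably expanded library 3.

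By role, the 2 genes of chromosomes and proliferation had the highest summed level, 1812 to 2846 CPM per library of the 4626 to 7136 CPM of all members. *Mki67* was at 1281, 1551 and 1603 CPM in the pre-malignant, 1968, 1872 and 1315 CPM in the de novo expanded and 1794, 1865 and 1343 CPM in the stably expanded libraries. *Top2a* was at 532, 665 and 723 CPM in the pre-malignant, 878, 868 and 571 CPM in the de novo expanded and 759, 774 and 603 CPM in the stably expanded libraries. In both genes library 3 of each expanded group lay among the pre-malignant values, so that the groups overlapped. The log2 fold change of *Mki67* was 0.22 ± 0.16 (SE, n = 3 per group) for the de novo expanded and 0.17 ± 0.13 for the stably expanded over the pre-malignant cells, with adjusted p-values of 0.638 and 0.451 (limma). That of *Top2a* was 0.27 ± 0.19 and 0.16 ± 0.13, with adjusted p-values of 0.598 and 0.457.

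The 7 genes of mitotic entry were all above 0 in de novo expanded cells (median 0.22) and 5 of 7 in stably expanded cells (median 0.27). *Cdk1*, the kinase, was at 58.6, 67.5 and 69.3 CPM in the pre-malignant, 78.4, 78.5 and 62.6 CPM in the de novo expanded and 86.3, 84.4 and 67.8 CPM in the stably expanded libraries. *Ccna2*, cyclin A2 of S phase and G2, was at 74.7, 91.3 and 109 CPM in the pre-malignant, 158, 124 and 89.9 CPM in the de novo expanded and 133, 136 and 95.2 CPM in the stably expanded libraries. Libraries 1 and 2 of both expanded groups lay above every pre-malignant library in both genes, and library 3 lay among them. The log2 fold change in stably expanded cells was 0.29 ± 0.12 for *Cdk1* and 0.41 ± 0.16 for *Ccna2*, with unadjusted p-values of 0.0361 and 0.0261 and adjusted p-values of 0.164 and 0.136 (limma). *Ccnb1*, cyclin B1, was at 14.9, 24.4 and 26.1 CPM in the pre-malignant, 27.5, 32.5 and 16.5 CPM in the de novo expanded and 27.9, 30.3 and 19.6 CPM in the stably expanded libraries. *Ccnb2*, cyclin B2, was at 54.1, 71.8 and 79.3 CPM in the pre-malignant, 80.7, 73.1 and 80.1 CPM in the de novo expanded and 91.4, 96.8 and 61.4 CPM in the stably expanded libraries. Unlike *Ccnb1*, *Ccnb2* was not low in de novo expanded library 3.

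The phosphatases that switch on Cdk1 spread more than the kinase. *Cdc25c*, the member with the fewest reads, was at 9.33, 14.6 and 10.4 CPM in the pre-malignant, 23.6, 16.4 and 12.0 CPM in the de novo expanded and 15.9, 11.5 and 10.8 CPM in the stably expanded libraries, and its log2 fold change in de novo expanded cells, 0.58 ± 0.29 (95% interval -0.08 to 1.25), was the largest of the 42. *Cdc25b* was at 23.7, 23.7 and 32.2 CPM in the pre-malignant, 37.5, 27.9 and 19.1 CPM in the de novo expanded and 21.8, 24.9 and 16.8 CPM in the stably expanded libraries. Its log2 fold change in stably expanded cells, -0.33 ± 0.18 (adjusted p = 0.301, limma), was the lowest of the 42, and it overlapped with the pre-malignant values. *Foxm1*, the transcription factor that drives many genes of this group, was at 94.1, 120.5 and 110.2 CPM in the pre-malignant, 135, 128 and 85.6 CPM in the de novo expanded and 105, 112 and 93.2 CPM in the stably expanded libraries. It showed log2 fold changes of 0.10 ± 0.18 and -0.06 ± 0.11 in the de novo and stably expanded comparisons, both smaller than their errors.

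Of the mitotic kinases, *Aurka*, which matures centrosomes, was at 34.7, 41.6 and 46.5 CPM in the pre-malignant, 54.3, 53.4 and 44.2 CPM in the de novo expanded and 58.7, 56.8 and 44.7 CPM in the stably expanded libraries. *Plk1*, the polo-like kinase, was at 35.7, 46.6 and 53.2 CPM in the pre-malignant, 54.6, 49.8 and 40.4 CPM in the de novo expanded and 70.1, 62.1 and 40.8 CPM in the stably expanded libraries. *Ttk*, the checkpoint kinase, was at 32.6, 40.0 and 38.6 CPM in the pre-malignant, 43.6, 40.2 and 27.7 CPM in the de novo expanded and 36.3, 43.9 and 33.6 CPM in the stably expanded libraries. Pre-malignant library 1 was the lowest of all for *Aurka* and *Plk1*, whereas *Ttk* was lowest in de novo expanded library 3. Stably over pre-malignant, the log2 fold change was 0.39 ± 0.14 for *Aurka* (unadjusted p = 0.0218, adjusted p = 0.123, limma), 0.34 ± 0.20 for *Plk1* and 0.03 ± 0.14 for *Ttk*.

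The chromosomal passenger complex corrects faulty attachments and consists of the kinase Aurkb, its scaffold Incenp, survivin (Birc5) and borealin (Cdca8). All 4 genes were above 0 in both comparisons with pre-malignant cells, with medians of 0.33 and 0.29. *Cdca8* (ENSMUSG00000028873.16 on chromosome 4, 124918465 to 124939311) was at 54.2, 73.1 and 60.9 CPM in the pre-malignant, 79.5, 80.2 and 71.3 CPM in the de novo expanded and 86.1, 80.7 and 78.0 CPM in the stably expanded libraries. *Birc5* (ENSMUSG00000017716.15 on chromosome 11, 117849251 to 117855743) was at 42.1, 52.0 and 55.7 CPM in the pre-malignant, 74.7, 69.4 and 55.3 CPM in the de novo expanded and 69.8, 63.9 and 48.7 CPM in the stably expanded libraries. In *Cdca8* 5 of the 6 leukemic libraries lay above all pre-malignant ones on the CPM scale, and on normalized counts neither leukemic group overlapped with them. The log2 fold change of *Cdca8* was 0.32 ± 0.13 with de novo expanded cells (unadjusted p = 0.0414, adjusted p = 0.428) and 0.39 ± 0.12 with stably expanded cells (unadjusted p = 0.00807, adjusted p = 0.0722, limma). For *Birc5* it was 0.43 ± 0.16 in de novo expanded cells (unadjusted p = 0.0275, adjusted p = 0.414, limma).

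*Aurkb* was at 48.3, 70.9 and 72.6 CPM in the pre-malignant, 93.5, 87.8 and 58.7 CPM in the de novo expanded and 84.2, 84.1 and 59.1 CPM in the stably expanded libraries. *Incenp* was at 159, 300.5 and 286 CPM in the pre-malignant, 349, 315 and 154 CPM in the de novo expanded and 302, 307 and 273 CPM in the stably expanded libraries. *Incenp* was at 273 to 349 CPM in 7 libraries but at 159 CPM in pre-malignant library 1 and 154 CPM in de novo expanded library 3, and stably expanded library 3 did not share this low level. Its log2 fold changes had wide errors, 0.12 ± 0.35 and 0.30 ± 0.19 in de novo and stably expanded over pre-malignant cells.

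In the checkpoint, Bub1, Bub1b, Bub3 and Mad2l1 restrain Cdc20, the activator of the anaphase promoting complex, for which Ube2c supplies ubiquitin. All 6 genes were above 0 in both comparisons with pre-malignant cells, with medians of 0.25 and 0.21. *Bub1* was at 39.1, 49.6 and 55.3 CPM in the pre-malignant, 61.0, 58.9 and 51.7 CPM in the de novo expanded and 62.2, 56.0 and 52.3 CPM in the stably expanded libraries. *Bub1b* was at 141, 179 and 184 CPM in the pre-malignant, 230.2, 204 and 149 CPM in the de novo expanded and 182, 194 and 181 CPM in the stably expanded libraries. *Bub3* was at 70.9, 74.1 and 77.3 CPM in the pre-malignant, 84.7, 82.9 and 72.6 CPM in the de novo expanded and 97.3, 81.4 and 64.9 CPM in the stably expanded libraries. *Bub1b* was the member of this role whose stably expanded libraries lay closest together, and on normalized counts they did not overlap with the pre-malignant ones. *Mad2l1* was at 31.2, 36.5 and 43.7 CPM in the pre-malignant, 44.6, 41.2 and 47.0 CPM in the de novo expanded and 44.7, 46.2 and 24.3 CPM in the stably expanded libraries. *Cdc20* was at 32.5, 45.7 and 46.6 CPM in the pre-malignant, 59.2, 43.2 and 41.0 CPM in the de novo expanded and 56.9, 57.6 and 38.6 CPM in the stably expanded libraries. *Ube2c* was at 32.0, 42.9 and 43.3 CPM in the pre-malignant, 60.2, 50.8 and 39.3 CPM in the de novo expanded and 60.4, 67.2 and 34.6 CPM in the stably expanded libraries. *Mad2l1* departed from the general pattern in de novo expanded library 3, which was its highest of all 9. Stably expanded library 3, low for most members, was its lowest of all 9. The largest fold change of the role was that of *Ube2c*, 0.35 ± 0.19 and 0.42 ± 0.22, with adjusted p-values of 0.517 and 0.263 (limma).

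At the kinetochore the outer Ndc80 complex binds microtubules, and its 4 subunits were all above 0 in both comparisons with pre-malignant cells. *Nuf2* (ENSMUSG00000026683.14 on chromosome 1, 169497934 to 169531464) was at 49.9, 53.1 and 66.5 CPM in the pre-malignant, 84.2, 83.9 and 65.7 CPM in the de novo expanded and 82.9, 70.6 and 65.7 CPM in the stably expanded libraries. *Spc25* (ENSMUSG00000005233.16 on chromosome 2, 69193895 to 69206194) was at 24.9, 28.3 and 30.1 CPM in the pre-malignant, 41.9, 41.6 and 27.5 CPM in the de novo expanded and 43.3, 42.5 and 31.2 CPM in the stably expanded libraries. Libraries 1 and 2 of both expanded groups stood above all pre-malignant libraries for both genes. In *Nuf2* library 3 of both expanded groups (65.7 CPM) lay below pre-malignant library 3 (66.5 CPM). In *Spc25* library 3 lay among the pre-malignant values in the de novo expanded group and just above them in the stably expanded group. On normalized counts *Nuf2* did not overlap with the pre-malignant libraries in either leukemic group, and *Spc25* did not in the stably expanded group. *Nuf2* had the smallest p of the de novo expanded comparison, with a log2 fold change of 0.48 ± 0.15 (95% interval 0.13 to 0.84, unadjusted p = 0.0145, adjusted p = 0.385, limma), and 0.38 ± 0.14 in stably expanded cells (unadjusted p = 0.0182, adjusted p = 0.112). *Spc25* was at 0.41 ± 0.19 and 0.48 ± 0.15, with unadjusted p-values of 0.0635 and 0.00942 and adjusted p-values of 0.461 and 0.0772.

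*Ndc80* was at 48.9, 55.7 and 64.1 CPM in the pre-malignant, 67.8, 70.9 and 57.1 CPM in the de novo expanded and 64.9, 67.3 and 51.1 CPM in the stably expanded libraries. *Spc24* was at 38.2, 41.8 and 47.9 CPM in the pre-malignant, 54.6, 51.6 and 48.3 CPM in the de novo expanded and 58.6, 52.3 and 46.6 CPM in the stably expanded libraries. Its log2 fold change was 0.30 ± 0.13 in stably expanded cells (unadjusted p = 0.041, adjusted p = 0.175, limma), and that of *Ndc80* was 0.12 ± 0.14. The centromere and corona proteins did not share these positive values. *Cenpa*, the centromeric histone, was at 65.0, 75.6 and 74.7 CPM in the pre-malignant, 69.7, 78.6 and 54.7 CPM in the de novo expanded and 69.6, 66.8 and 56.0 CPM in the stably expanded libraries. *Cenpe*, a kinesin of the kinetochore, was at 233, 269.5 and 239 CPM in the pre-malignant, 259.5, 239.5 and 203 CPM in the de novo expanded and 242, 255 and 211 CPM in the stably expanded libraries. *Cenpf*, a corona protein, was at 215, 265 and 254 CPM in the pre-malignant, 275, 262 and 182 CPM in the de novo expanded and 267, 281 and 194 CPM in the stably expanded libraries. In all 3 genes the highest values of the pre-malignant and leukemic libraries lay close together. In de novo expanded cells their log2 fold changes were -0.08 ± 0.15, -0.07 ± 0.11 and -0.03 ± 0.16, 3 of the 4 members below 0, and in stably expanded cells -0.16 ± 0.12, -0.06 ± 0.10 and 0.01 ± 0.13.

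**Figure D5:**
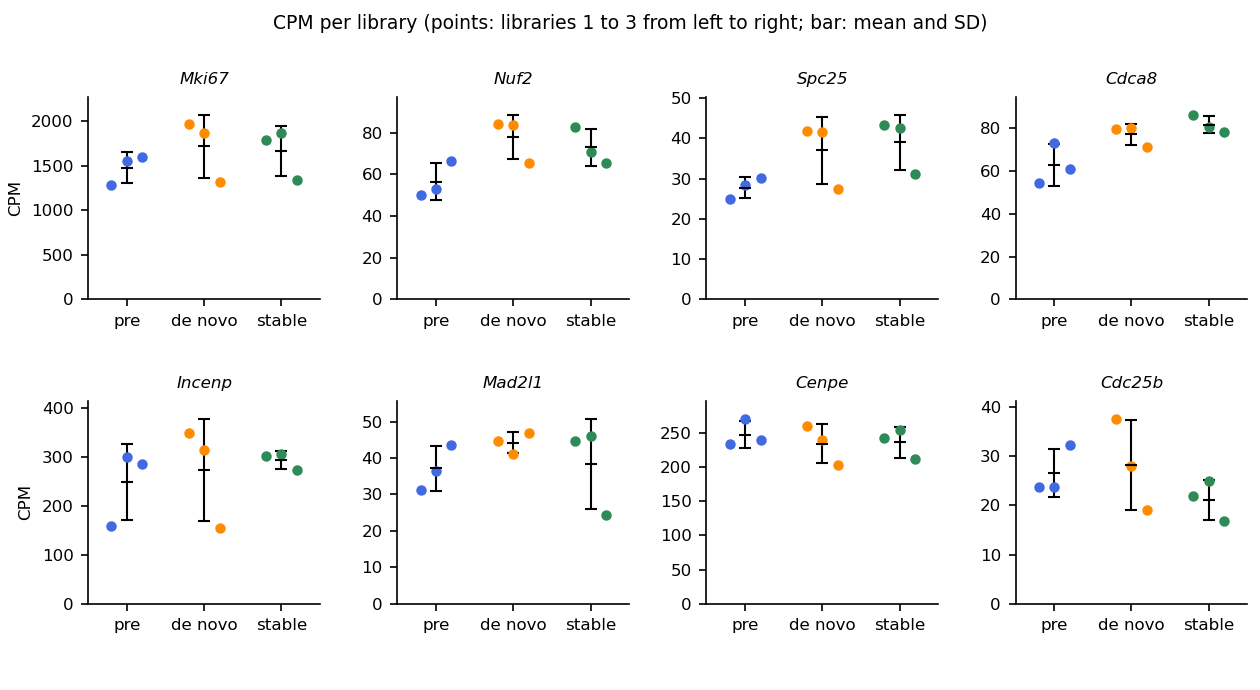
CPM of 8 members in each library, with the mean and SD of each group (n = 3) and the y axis from 0. *Nuf2*, *Spc25* and *Cdca8* are higher in the means of both expanded groups, *Incenp* is low in pre-malignant library 1 and de novo expanded library 3, *Mad2l1* is lowest in stably expanded library 3 at 24.3 CPM, and in *Cenpe* and *Cdc25b* all 3 groups overlap.

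The 7 motors and organizers of the spindle were above 0 in both comparisons with pre-malignant cells (medians 0.23 and 0.24). *Kif11*, the kinesin that pushes the poles apart, was at 45.4, 62.0 and 60.4 CPM in the pre-malignant, 87.1, 76.1 and 48.6 CPM in the de novo expanded and 72.7, 86.1 and 64.1 CPM in the stably expanded libraries. *Tpx2*, which targets Aurka to the spindle, was at 123, 165 and 149.6 CPM in the pre-malignant, 196, 177 and 145 CPM in the de novo expanded and 197, 174 and 168 CPM in the stably expanded libraries. For *Tpx2* all 3 stably expanded libraries lay above all pre-malignant ones, and the same was found for *Kif11*, although de novo expanded library 3 was near the lowest pre-malignant library in *Kif11*. In stably expanded cells the log2 fold change was 0.42 ± 0.14 for *Kif11* (unadjusted p = 0.0142, adjusted p = 0.0971, limma) and 0.31 ± 0.12 for *Tpx2* (unadjusted p = 0.0225, adjusted p = 0.126). *Kif2c*, which shortens microtubules, was at 39.5, 46.9 and 46.4 CPM in the pre-malignant, 53.7, 53.1 and 38.3 CPM in the de novo expanded and 55.5, 57.6 and 44.0 CPM in the stably expanded libraries. *Kif4*, a motor on chromosome arms, was at 66.4, 73.0 and 80.9 CPM in the pre-malignant, 106, 89.1 and 59.2 CPM in the de novo expanded and 89.7, 82.7 and 58.5 CPM in the stably expanded libraries. *Kif20b* was at 112, 149 and 125 CPM in the pre-malignant, 147, 131 and 109 CPM in the de novo expanded and 127, 132 and 143 CPM in the stably expanded libraries. *Kif20b* stood out because stably expanded library 3 was the highest of its group, and its log2 fold changes were 0.02 ± 0.14 and 0.07 ± 0.11. The remaining *Kif15* and *Nusap1* had log2 fold changes of 0.23 ± 0.12 and 0.29 ± 0.18 in de novo and 0.14 ± 0.11 and 0.26 ± 0.16 in stably expanded cells.

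The 6 genes of the midzone and cytokinesis had the lowest median log2 fold change of the 8 roles in the stably expanded comparison, 0.10, and a median of 0.19 in the de novo expanded one. *Prc1*, which bundles midzone microtubules, was at 87.8, 106 and 117 CPM in the pre-malignant, 160.1, 135 and 83.1 CPM in the de novo expanded and 122, 119 and 91.4 CPM in the stably expanded libraries. *Kif20a*, which brings the passenger complex to the midzone, was at 49.1, 68.9 and 78.0 CPM in the pre-malignant, 99.6, 88.0 and 48.9 CPM in the de novo expanded and 84.3, 85.2 and 59.2 CPM in the stably expanded libraries. Both were highest in de novo expanded library 1 and low in library 3 of that group, a spread of 1.93 and 2.04 times between the extremes of the 9 libraries. *Kif23* and *Racgap1*, the subunits of centralspindlin, were at 0.16 ± 0.13 and 0.19 ± 0.23 in log2 fold change in de novo expanded cells. *Ect2*, the exchange factor that starts furrowing, and *Anln*, the ring protein anillin, were at 0.11 ± 0.13 and 0.20 ± 0.12, and all 4 had adjusted p-values of at least 0.547 (limma). In stably expanded cells these 4 genes were at 0.13 ± 0.11, 0.06 ± 0.17, 0.03 ± 0.13 and 0.11 ± 0.12.

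Exons of 9 members overlap a gene on the opposite strand with at least 10 reads, among them *Kif20a* with *Cdc23* (29.3% of its exon bases), *Kif4* with *Pdzd11* (15.1%), *Ccna2* with *Exosc9* (12.5%) and *Cdca8* with *9930104L06Rik* (4.48%). The strand setting of the read counting is not given in the sources used here, so reads of such pairs may not be told apart.

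Of the 113 other mitotic genes 112 were tested. In de novo expanded over pre-malignant cells 93 were above 0 (background 51%, median 0.17), 10 were higher and 1 lower at an unadjusted p under 0.05 (background 5.99% and 5.26%), and 0 were called. The smallest p-values were those of *Mybl2*, a factor of the MuvB complex, at 0.41 ± 0.09, *Pbk*, a mitotic kinase, at 0.93 ± 0.22, and *Smc4*, the condensin subunit, at 0.32 ± 0.09, with adjusted p-values of 0.347, 0.358 and 0.372 (limma). In stably expanded over pre-malignant cells 79 were above 0 (background 50.5%, median 0.11), 19 were higher and 3 lower at an unadjusted p under 0.05 (background 13.2% and 12.3%), and 4 had an adjusted p under 0.05 below 2-fold. These 4 of 112 are a smaller share than the background of 7.95% over all genes. They were *Rbbp4*, a histone chaperone shared with MuvB, at 0.41 ± 0.09 (adjusted p = 0.0224), *Smc4* at 0.39 ± 0.09 (0.0231), *Cdc25a*, a phosphatase of cyclin-dependent kinases, at 0.55 ± 0.13 (0.0318) and *Mybl2* at 0.40 ± 0.10 (0.0334, limma). Between the leukemic groups 51 of 112 were above 0 (background 49.6%), and the smallest p-values belonged to *Wapl*, which releases cohesin, at 0.32 ± 0.13, *Sgo1*, which protects it, at -0.37 ± 0.18, and *Cdc25a* at 0.35 ± 0.17, each with an adjusted p of 0.891.

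Of the 24 S phase genes 21 and 20 were above 0 in de novo and stably expanded over pre-malignant cells (background 51% and 50.5%), with medians of 0.21 in both. In the stably expanded comparison 3 of them had an adjusted p under 0.05 (background 7.95%), namely *Dut*, which clears dUTP, at 0.65 ± 0.10 (0.00741), *Ccne2*, cyclin E2, at 0.65 ± 0.14 (0.0187) and *Rrm2*, a subunit of ribonucleotide reductase, at 0.52 ± 0.13 (0.0402, limma). In the de novo expanded comparison 7 of 24 were higher at an unadjusted p under 0.05 (background 5.99%) and 0 passed the adjusted threshold. Of the 7 genes of these lists under the adjusted threshold in stably expanded cells, 2, 1 and 4 stayed under it without pre-malignant library 1, 2 or 3, 1, 5 and 7 without stably expanded library 1, 2 or 3, and 0 in the fit of all 9 libraries. *Mybl2* also missed it with no filter on low values (adjusted p = 0.0681, limma) and *Rrm2* after quantile normalization (adjusted p = 0.0512, limma).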

How the data were processed

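RNA-Seq libraries (SMARTer Stranded Total RNA-Seq Pico v3 chemistry, NextSeq 550) of 9 sorted samples were compared. According to the study's methods and the submitters' processing notes, the authors ran nf-core/rnaseq with Trim Galore 0.6.4, STAR 2.6.1d and featureCounts 1.6.4 on GRCm38.p6 with GENCODE M25, and then DESeq2 with its outlier handling and independent filtering turned off. The values the authors deposited are a signal, read counts per gene divided by DESeq2 size factors (normalized counts), in 3 tables of 6 libraries. Other deposited columns hold the authors' mean, log2 fold changes, Wald statistics, p-values and adjusted p-values and were not used, and deposited exon lengths served for levels per kilobase.

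Whole reads were recovered from the steps of the values (at least 99.99% of nonzero values whole to within 0.05), and CPM were computed from them. Depth was 10379739 to 15551196 reads on genes. A value rests on counting error and on losses before sequencing, which depth does not show. The main test was limma 3.58.1 with trend (R 4.3.3), two-sided, with log2(normalized count + 1) as the measure, for genes whose mean normalized count reached 10 over the 6 libraries of a comparison, adjusted by Benjamini-Hochberg over all genes tested. On this scale fold changes of low genes are understated. A call needed an adjusted p under 0.05 and a 2-fold change. On recovered reads, edgeR 4.0.16 called 0, 377 and 1 genes and DESeq2 1.42.0 called 62, 531 and 32, against 0, 384 and 1 with limma (order: de novo against pre-malignant, stably expanded against pre-malignant, and both leukemic groups against each other). Of these fits only limma was also run on simulated data, in which each gene varied independently of the others. A shift shared by many genes of 1 library, as seen in the members, was not simulated. Python 3.11.15 (matplotlib 3.10.9, numpy 2.4.6, pandas 2.3.3) served for tables and plots.

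Members, roles and lists were chosen with earlier results of these data known. The rule for naming members took those with an unadjusted p under 0.05, the 3 largest and the 3 lowest changes of a comparison and listed members of each role whatever their values. The remaining members are given too, so that all 42 have values. The rule took of other mitotic genes the calls or, with 0 calls, the 3 smallest p-values. S phase genes and the 4 other mitotic genes under the adjusted threshold were named after their values were seen, as were the promoters shown. Alternative settings were a pseudocount of 0.1 or 5, a minimum mean of 50 or none, quantile normalization, edgeR, DESeq2, 1 fit of all 9 libraries, no fold limit and leaving out each library. A further engineered feature that all 9 samples share is not reported here.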

Additional observations from a re-analysis of the deposited data

How the results depend on the processing

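In each comparison 0 members were called under every alternative tried. Pseudocounts of 0.1 and 5, no filter or a filter at 50, quantile normalization, edgeR, DESeq2 and 1 fit of all 9 libraries left the median log2 fold change of the members between 0.19 and 0.23 in de novo expanded over pre-malignant, between 0.17 and 0.20 in stably expanded over pre-malignant and between -0.029 and -0.0023 in stably over de novo expanded cells. Leaving out 1 library in turn moved these medians to 0.12 to 0.35, 0.06 to 0.31 and -0.15 to 0.10, so that the last has no fixed sign. The number of members higher at an unadjusted p under 0.05 then ranged over 0 to 26, 2 to 18 and 0 to 1, and the number with an adjusted p under 0.05 over 0 to 2, 0 to 3 and 0 to 0. With all libraries the share of all genes under this adjusted threshold was 0%, 7.95% and 0.00727%, and it is not given for the fits without 1 library. The extremes of the medians, and of the counts at an unadjusted p against pre-malignant cells, came from leaving out library 3 of either expanded group or pre-malignant library 1, with a count of 0 also without de novo expanded library 2, and the cause was not tested. Over all genes, 214 were called in de novo over pre-malignant and 508 in stably over de novo expanded cells without de novo expanded library 3, against 0 and 1 with it, and the fit of all 9 libraries called 5, 6 and 2 genes in the 3 comparisons. No paired analysis was possible because the columns are tied to groups only: the labels give clones and mice that groups share, but no column can be matched to its clone or mouse.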
